A study of Mus musculus with 15 samples.

Results

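Transverse stretch of 30 min was compared with no stretch in cultured cardiac myocytes of newborn C57BL/6 mice, through poly(A) RNA sequencing of 6 of the 15 libraries of the series. The stretched group holds 3 libraries, A, B and C, from cells on silicone (PDMS) membranes that were stretched statically for 30 min with the transverse axis as the primary axis. The membrane was lengthened by 14% along that axis and by 3.6% at right angles to it, per the labels. The control group holds 3 libraries, also A, B and C, from non-stretched cells. Each library comes from its own stretch device, and the design text calls the devices of a group biological replicates. The labels do not say how many animals or cell isolations they came from, so p-values measure the spread between these devices. Of the other groups, transverse stretch for 4 h and longitudinal stretch for 30 min (3 libraries each) are used below for 2 direct comparisons, and longitudinal stretch for 4 h only adds to the estimate of the spread.

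Levels are given in FPKM, fragments scaled by transcript length and by sequencing depth, so they can be compared between genes per unit of length. Of the 13657 rows of the deposited table, 151 small RNA rows (Mir, Snora and Snord) were left out and 1500 did not reach 1 FPKM in at least 3 of the 15 libraries. The remaining 12006 genes were tested with limma on log2(FPKM + 1), and a gene was called, or said to have risen or fallen, at an adjusted p (Benjamini-Hochberg over the 12006 genes) under 0.05. All differences below are transverse 30 min minus control on that log2 scale unless another comparison is named, with their SE, and they understate the change of genes with low values. In bulk RNA, a change in the number of cells of a type and a change in RNA per cell cannot be told apart.

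Immediate early genes are genes whose transcription starts within minutes of a stimulus without new protein synthesis. In heart muscle cells, stretch acts on integrins, ion channels and autocrine hormones, which activate MAP kinases and calcium signalling. These pathways reach transcription factors already present in the cell, among them SRF with its ternary complex partners and CREB, which bind CArG boxes and cAMP response elements in early promoters. The first wave encodes transcription factors such as Fos and Egr1, proteins that destroy short-lived mRNAs, and inhibitors that shut the same kinases down. Genes of the later load response, such as Nppb and Acta1, are classic markers of hypertrophic growth.

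After 30 min of transverse stretch 33 of 12006 genes differed from control (0.275%), 32 higher (0.267%) and 1 lower (0.00833%). The risen genes encode early transcription factors and MAP kinase feedback inhibitors, and fewer proteins of mRNA decay, splicing, secretion and lipid modification. Of the 33 differences 13 were above 2, 9 lay between 1 and 2, and 11 were under 1 in size. The gene that fell was Clk1, a kinase of splicing factors. The values of the groups did not overlap for any of the 33, against 7.52% of all genes tested (903 of 12006). The 33 were called from these same values, so the lack of overlap is no further support for them. The median over all genes tested was -0.0052.

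**Figure D1:**
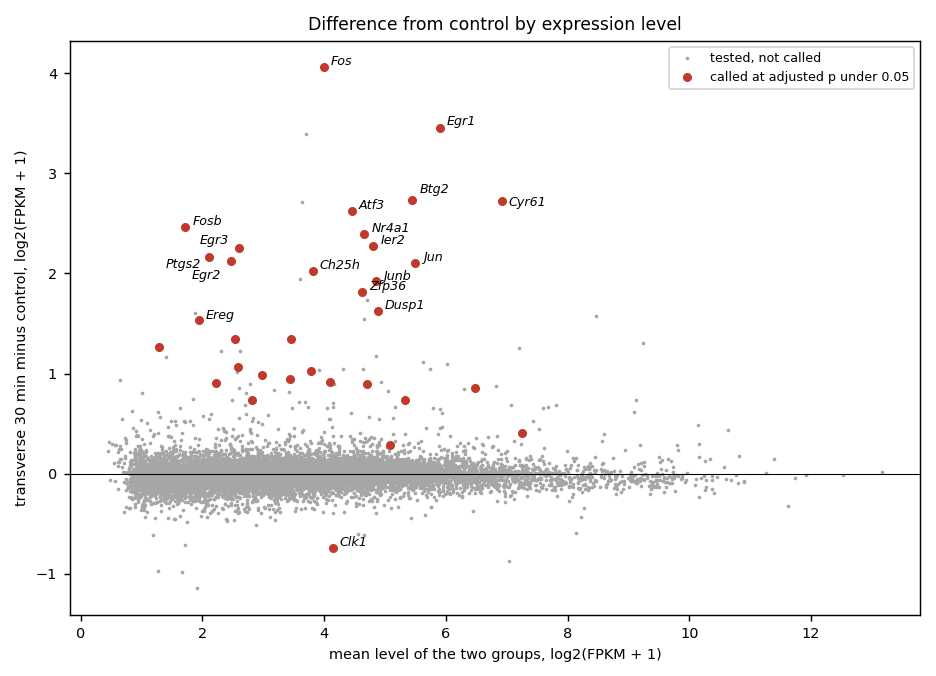
Difference between transverse 30 min and control (vertical, log2(FPKM + 1)) against the mean level of both groups (horizontal, log2(FPKM + 1)) for the 12006 genes tested, with the 33 called genes in red. Nearly all called genes lie above 0, led by Fos at 4.06 and Egr1 at 3.45, and Clk1 is the only one below 0.

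The transverse 30 min libraries differed among themselves, and library B stood apart. In library B 144 genes were at least 2-fold above both other libraries of its group on the log2(FPKM + 1) scale, against 1 to 41 genes in the other 14 libraries. Along the first component of the deviations from the group means, which held 54.7% of their variance, its score was 0.546, that of transverse 30 min C -0.428, and those of the other libraries lay between -0.234 and 0.354. Its relative depth, read from the steps of the lowest FPKM values, was the lowest at 0.671 of the deepest library, against 0.777 to 1 in the others, but 23 genes stood on that step and 22 on the next, so this depth is uncertain. Control B deviated the other way, with a score of -0.219. Of the 33 called genes 24 kept the call without transverse 30 min B and 21 kept it when each of the 6 libraries was left out in turn. The main fit shares 1 estimate of the spread over the 5 groups. Fitting only the 6 libraries takes the spread from transverse 30 min and control alone and leaves fewer degrees of freedom. That fit kept 20 of the 33. It lost Jun, Atf3, Klf6, Cited2, Dusp6, Spry4, Ptgs2, Cyr61, Ereg, Adamts1, Srsf5, Srsf6 and Ddx5 (adjusted p from 0.0517 for Jun to 0.836 for Ddx5). Why these calls ended was not tested. The calls that rest on single libraries are named with each gene group.

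**Figure D2:**
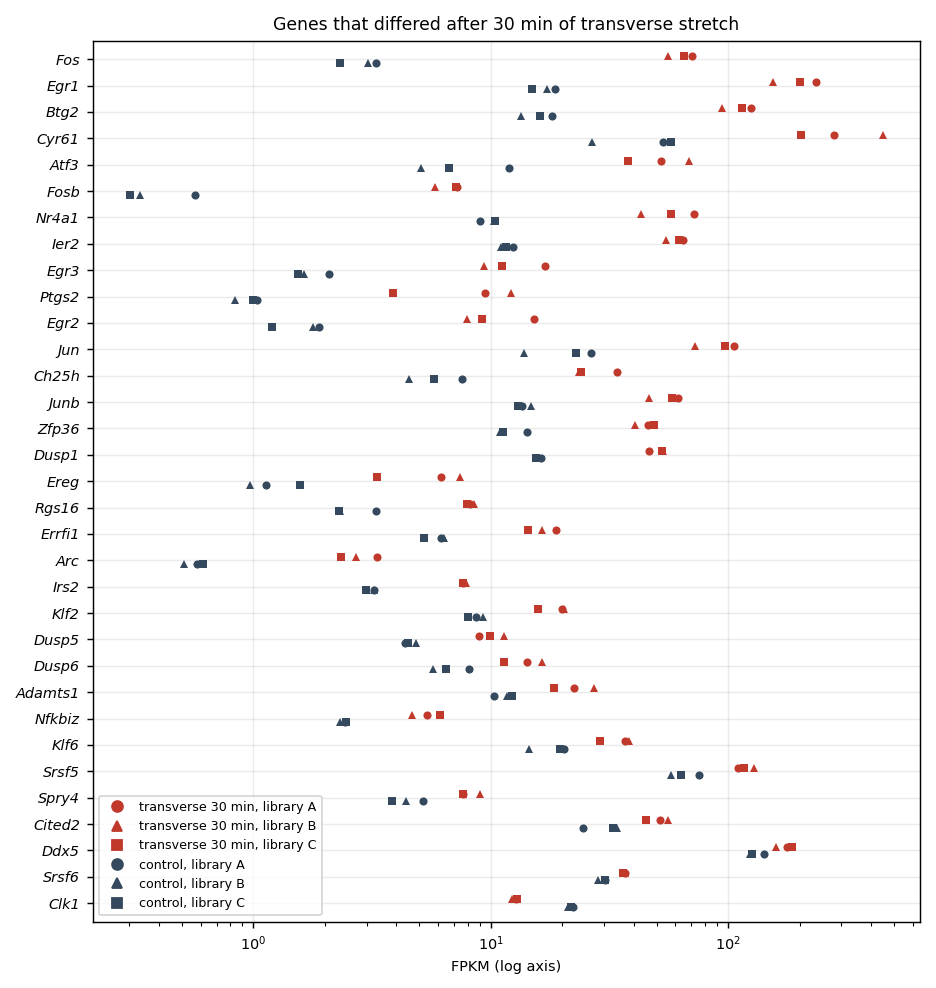
FPKM (log axis) of the 33 called genes in each library of transverse 30 min (red, upper points of each row) and control (blue, lower points), ordered by the log2 difference, with circles for library A, triangles for B and squares for C. The groups do not overlap for any gene, and transverse 30 min B is the lowest of its group for Fos, Egr1 and Nr4a1 and the highest for Cyr61, Atf3, Ptgs2 and Ereg.

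AP-1 is a dimer of Fos, Jun and Atf family proteins that binds promoters and enhancers of growth and stress genes. Of the 14 AP-1 genes tested 5 rose (Fos, Fosb, Jun, Junb and Atf3), 0 fell and 9 were not called, with a median difference of 0.49. Fos, which binds DNA as a dimer with Jun proteins, had 70.6, 56.0 and 65.0 FPKM in the transverse 30 min libraries A, B and C, against 3.30, 3.04 and 2.32 FPKM in control A, B and C. All stretched libraries were far above all controls, a difference of 4.06 ± 0.16 (adjusted p = 4.31e-08). Fosb, its close relative, had 7.19, 5.84 and 7.16 FPKM under transverse stretch and 0.570, 0.334 and 0.303 FPKM in control. It was barely expressed in every control library, and its difference was 2.46 ± 0.24 (adjusted p = 0.000191).

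Among the Jun partners, Junb had 61.6, 46.5 and 57.9 FPKM after transverse stretch and 13.6, 14.7 and 13.1 FPKM in control, a difference of 1.92 ± 0.12 (adjusted p = 2.68e-06). The libraries within each group were close together. Jun itself had 105, 72.5 and 97.1 FPKM under stretch and 26.5, 13.8 and 22.9 FPKM in control, a difference of 2.10 ± 0.24 (adjusted p = 0.00064). Library B was the lowest in both groups for this gene, and its call was lost in the fit of the 6 libraries only (adjusted p = 0.0517). Atf3, a stress-induced member of the family, had 52.3, 68.3 and 37.9 FPKM in stretched cells, against 12.0, 5.10 and 6.68 FPKM in control, with a difference of 2.63 ± 0.36 (adjusted p = 0.00415). Here transverse 30 min B was the highest and C the lowest, and the call held in all 6 leave-outs of these groups (adjusted p = 0.00328 to 0.0327) but not in the fit of the 6 libraries only (adjusted p = 0.053). Not called were Jund, the Jun protein of resting cells (0.46, adjusted p = 1), and Fosl2 (0.67, adjusted p = 0.637).

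Egr proteins are zinc finger factors that bind GC-rich promoters, and Nab1 and Nab2 are their corepressors. Of the 5 genes tested from this list 3 rose (Egr1, Egr2 and Egr3), 0 fell and 2 were not called. Egr1 had 235, 154 and 201 FPKM in the transverse 30 min libraries, against 18.6, 17.2 and 14.9 FPKM in control, a difference of 3.45 ± 0.16 (adjusted p = 1.16e-07). It was the most abundant transcription factor mRNA among the called genes, and its lowest stretched library was 8.25-fold above its highest control library. Egr2 had 15.2, 7.93 and 9.15 FPKM under transverse stretch and 1.89, 1.79 and 1.20 FPKM in control, with a difference of 2.12 ± 0.21 (adjusted p = 0.000188). Egr3 had 16.9, 9.36 and 11.2 FPKM with stretch and 2.08, 1.64 and 1.54 FPKM without it, a difference of 2.26 ± 0.26 (adjusted p = 0.000907). For all 3 genes library A was the highest and library B the lowest of the stretched group. The corepressors Nab1 (0.07) and Nab2 (0.02) had adjusted p = 1.

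Nr4a1 encodes Nur77, an orphan nuclear receptor regulated by its own synthesis rather than by a known ligand. Its levels were 71.5, 42.9 and 57.6 FPKM in transverse 30 min libraries and 8.99, 10.3 and 10.4 FPKM in control, a difference of 2.39 ± 0.17 (adjusted p = 7.22e-06). The other members tested, Nr4a3 (0.54, adjusted p = 0.657) and Nr4a2 (0.19, adjusted p = 1), were not called, so 1 of 3 rose. Of 13 Kruppel-like factors 2 rose, 0 fell and 11 were not called, with a median of 0.07. Klf2, a flow-responsive factor best known in endothelium, had 19.9, 20.3 and 15.9 FPKM after stretch and 8.65, 9.26 and 8.06 FPKM in control (1.02 ± 0.15, adjusted p = 0.00638). The 9 endothelial markers all had negative differences. Their summed level was 32.0 to 46.5 FPKM in stretched and 39.8 to 66.2 FPKM in control libraries. Control A was the highest control library for each of them except Tek, so the upper end of the control range rests on it. Pecam1, for example, had 10.1, 5.15 and 6.24 FPKM in control A, B and C. In transverse 30 min A, B and C it had 4.10, 6.30 and 6.67 FPKM. The part of endothelial cells in the Klf2 result was not tested. Klf6 had 36.7, 38.3 and 29.0 FPKM in stretched and 20.3, 14.6 and 19.7 FPKM in control libraries (0.90 ± 0.14, adjusted p = 0.0141). Removing control B, or either of the stretched libraries A and B, ended its call (adjusted p between 0.0086 and 0.102 when each of the 6 libraries was removed).

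Of 29 other early transcription regulators 2 rose, 0 fell and 27 were not called, with a median of 0.29. Ier2, a nuclear immediate early protein, had 64.8, 54.5 and 62.3 FPKM under transverse stretch and 12.5, 11.1 and 11.6 FPKM in control. The spread within each group was small, and the difference of 2.27 ± 0.10 had the same adjusted p as Fos (4.31e-08). Cited2, which competes for the coactivators CBP and p300, had 51.6, 56.1 and 44.97 FPKM in stretched and 24.4, 34.1 and 32.6 FPKM in control libraries (0.73 ± 0.13, adjusted p = 0.031). That call ended in 11 of the 15 single leave-outs, with adjusted p = 0.0164 to 0.17 over them. Myc was not called: it had 8.37, 10.3 and 6.60 FPKM in stretched libraries, above the 4.81, 3.18 and 4.14 FPKM of the controls, with a difference of 0.90 ± 0.21 (adjusted p = 0.226).

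A second set of risen genes holds Btg2 and Zfp36, which limit mRNA life or cell growth, and Arc, which was placed in the same list. Of 30 early genes of mRNA decay, growth arrest and survival 3 rose (Btg2, Zfp36 and Arc), 0 fell and 27 were not called, with a median of 0.29. Btg2, an antiproliferative protein that recruits the CCR4-NOT deadenylase, had 125, 94.3 and 115 FPKM after transverse stretch and 18.2, 13.5 and 16.2 FPKM in control, a difference of 2.73 ± 0.17 (adjusted p = 2.68e-06). Zfp36 encodes tristetraprolin, which binds AU-rich elements and speeds the decay of cytokine and early gene mRNAs. Its level was 46.2, 40.7 and 48.8 FPKM in stretched and 14.3, 10.96 and 11.3 FPKM in control libraries, a difference of 1.82 ± 0.17 (adjusted p = 0.000179). Arc, known from neuronal synapses, stayed low, with 3.31, 2.70 and 2.34 FPKM under stretch and 0.578, 0.511 and 0.612 FPKM in control (1.26 ± 0.19, adjusted p = 0.00894). Without control B or without transverse 30 min A its adjusted p was above 0.05 (0.0177 to 0.069 over the 6 leave-outs).

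Feedback inhibitors act on the kinases that switch early genes on. Among 20 tested inhibitors in the MAP kinase and calcineurin pathways, 5 were higher, 0 lower and 15 not called (median 0.30). Dusp1, a nuclear phosphatase of p38, JNK and ERK, had 46.4, 53.1 and 52.7 FPKM in transverse 30 min libraries and 16.2, 15.5 and 15.5 FPKM in control, a difference of 1.62 ± 0.12 (adjusted p = 7.22e-06). Errfi1, which binds and inhibits the EGF receptor kinase, had 18.8, 16.5 and 14.4 FPKM in stretched and 6.15, 6.36 and 5.21 FPKM in control cells, a difference of 1.34 ± 0.14 (adjusted p = 0.000212). The lowest stretched library was 2.86-fold (Dusp1) and 2.26-fold (Errfi1) above the highest control library.

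The ERK phosphatase gene Dusp5 had 8.92, 11.4 and 9.95 FPKM with stretch and 4.36, 4.85 and 4.47 FPKM without (0.99 ± 0.15, adjusted p = 0.00894). Dusp6, the cytosolic ERK phosphatase, had 14.2, 16.5 and 11.3 FPKM under stretch and 8.13, 5.72 and 6.46 FPKM in control (0.95 ± 0.16, adjusted p = 0.021). Spry4, an inhibitor of Ras-ERK signalling, had 7.64, 8.99 and 7.61 FPKM in stretched and 5.18, 4.39 and 3.84 FPKM in control libraries (0.74 ± 0.14, adjusted p = 0.0476). These 3 genes were highest in transverse 30 min B and lost the call without it (adjusted p = 0.0525, 0.115 and 0.243). Dusp5 also lost it without control A or C, Dusp6 without control B, control C or transverse 30 min A, and Spry4 in each of the 6 leave-outs and when libraries were shifted to a common median (adjusted p = 0.0683). Spry2 showed the opposite, with 21.8, 17.2 and 20.7 FPKM in stretched and 16.8, 16.3 and 15.3 FPKM in control libraries. It was not called with all libraries (0.28, adjusted p = 0.518) and was called without transverse 30 min B (0.38 ± 0.06, adjusted p = 0.0346).

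Outside the lists, 2 signalling genes rose with little spread. Rgs16, which shortens signalling by G proteins of the Gi and Gq classes, had 8.16, 8.48 and 7.94 FPKM under transverse stretch and 3.29, 2.31 and 2.30 FPKM in control (1.35 ± 0.13, adjusted p = 0.000157). Irs2, an adaptor of the insulin and IGF1 receptors, had 7.61, 7.86 and 7.61 FPKM with stretch and 3.24, 3.22 and 2.998 FPKM without it (1.07 ± 0.12, adjusted p = 0.000433). Both calls held in all 15 single leave-outs.

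The promoters of the risen genes were compared by the motifs of the factors named above. RefSeq windows of the 250 bases before each gene start (build GRCm38.p6) matched 25 of the 33 called genes, all of them risen, and 9555 of the genes tested. No window was matched for Egr1, Ier2, Egr3, Arc, Nfkbiz, Ereg, Spry4 and Clk1, so the motif counts do not cover these genes. A CArG box, searched by its consensus, was in 3 of the 25 (12.0%: Zfp36, Egr2 and Dusp5), against 1.58% of the tested genes with a window and 1.47% of all 32851 windows. The full palindromic cAMP response element TGACGTCA was in 4 of the 25 (16.0%: Btg2, Dusp1, Ch25h and Errfi1), against 3.02% of tested genes and 1.55% of windows. Its shorter form TGACG, which lies within the full element and was counted on either strand, was in 16 of the 25 (64.0%), against 31.2% of tested genes and 17.8% of windows. The AP-1 motif TGANTCA was in 0 of the 25 (0.0%, against 5.39% of tested genes and 6.75% of windows) and TATAAA in 6 (24.0%, against 7.94% and 12.4%). A gene with several windows counts once if any of them holds the motif. These are letter matches and not measured binding, a missing match says only that the letters are not in this window, and their part in the result was not tested.

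The windows below show each arrangement, read 5′ to 3′ on the strand of the gene and ending 1 base before the RefSeq start, with CArG boxes and TGACG (or CGTCA, its other strand) in capitals. Fos (chr12:85473640-85473889, plus strand) has 2 short elements, the nearer one ending 62 bases before the start. Btg2 (chr1:134079156-134079405, minus strand), Dusp1 (chr17:26508473-26508722, minus strand) and Errfi1 (chr4:150854820-150855069, plus strand) have the full element, ending 159, 136 and 44 bases before the start. Zfp36 (chr7:28379229-28379478, minus strand) has a CArG box ending 49 bases before the start. Egr2 (chr10:67537619-67537868, plus strand) and Dusp5 (chr19:53528895-53529144, plus strand) join CArG boxes with a short element within 30 bases, and in Dusp5 a pair of CArG boxes lies end to end.
Fos: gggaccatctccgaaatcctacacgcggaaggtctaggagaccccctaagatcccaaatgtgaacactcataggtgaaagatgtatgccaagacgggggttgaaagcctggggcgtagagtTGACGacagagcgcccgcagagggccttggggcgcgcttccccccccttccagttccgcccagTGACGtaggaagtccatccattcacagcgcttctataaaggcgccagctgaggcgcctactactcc
Btg2: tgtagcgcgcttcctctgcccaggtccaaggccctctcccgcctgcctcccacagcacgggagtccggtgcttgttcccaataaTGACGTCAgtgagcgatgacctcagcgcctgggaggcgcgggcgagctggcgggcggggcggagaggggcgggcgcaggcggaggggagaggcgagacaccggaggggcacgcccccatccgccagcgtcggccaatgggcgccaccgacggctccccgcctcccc
Dusp1: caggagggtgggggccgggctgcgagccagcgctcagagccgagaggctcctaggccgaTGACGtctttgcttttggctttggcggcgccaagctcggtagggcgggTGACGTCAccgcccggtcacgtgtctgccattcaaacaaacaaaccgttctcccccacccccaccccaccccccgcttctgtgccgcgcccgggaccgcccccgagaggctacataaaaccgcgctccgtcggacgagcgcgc
Errfi1: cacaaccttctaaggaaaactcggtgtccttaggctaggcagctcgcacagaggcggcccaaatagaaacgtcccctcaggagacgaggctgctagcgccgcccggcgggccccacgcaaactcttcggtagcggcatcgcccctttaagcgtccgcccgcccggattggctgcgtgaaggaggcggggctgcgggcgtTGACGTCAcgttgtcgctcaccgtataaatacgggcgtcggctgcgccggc
Zfp36: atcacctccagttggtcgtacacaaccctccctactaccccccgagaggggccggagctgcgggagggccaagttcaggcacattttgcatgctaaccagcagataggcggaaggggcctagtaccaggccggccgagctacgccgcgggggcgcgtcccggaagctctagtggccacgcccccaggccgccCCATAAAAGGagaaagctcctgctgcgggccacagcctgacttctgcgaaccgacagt
Egr2: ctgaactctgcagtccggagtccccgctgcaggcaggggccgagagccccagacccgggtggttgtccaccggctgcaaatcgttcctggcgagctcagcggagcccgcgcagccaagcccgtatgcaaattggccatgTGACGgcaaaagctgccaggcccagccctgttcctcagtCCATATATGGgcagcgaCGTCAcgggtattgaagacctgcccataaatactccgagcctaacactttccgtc
Dusp5: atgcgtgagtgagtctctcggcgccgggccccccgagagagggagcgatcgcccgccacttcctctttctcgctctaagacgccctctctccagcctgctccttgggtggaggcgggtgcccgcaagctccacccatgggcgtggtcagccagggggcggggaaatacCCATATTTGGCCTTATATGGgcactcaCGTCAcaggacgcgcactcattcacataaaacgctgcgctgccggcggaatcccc
The genes shown range from a difference of 4.06 (Fos) to 0.99 (Dusp5). The windows of Fos, Btg2, Dusp1 and Errfi1 held no CArG box, but sequence farther upstream was not searched. These genes may thus have a CArG box outside the window, and its part in the size of the differences was not tested.

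Called genes were also short. Their spans from start to end in the deposited table (mm9) had a median of 5004 bases, against 24648 bases for the genes tested. Spans under 10 kb were found for 25 of the 33 called genes (75.8%) and for 23.6% of the genes tested. Fos, for example, spans 3369 bases at chr12:86814851-86818219 (mm9), Ier2 1522 bases and Ch25h 1352 bases, while Irs2 was the longest at 67578 bases. Median control levels were alike, at 8.66 FPKM for called and 9.31 FPKM for tested genes.

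A few secreted, inflammatory and lipid-modifying products also rose. Of 20 NF-kB inhibitors and cytokine response genes 3 rose (Ch25h, Nfkbiz and Ptgs2), 0 fell and 17 were not called, with a median of 0.15. Ch25h, the cholesterol 25-hydroxylase that makes 25-hydroxycholesterol, had 34.1, 23.6 and 24.1 FPKM after transverse stretch and 7.59, 4.54 and 5.74 FPKM in control (2.03 ± 0.19, adjusted p = 0.00013). Nfkbiz, an atypical nuclear inhibitor of NF-kB, had 5.40, 4.68 and 6.10 FPKM in stretched and 2.43, 2.31 and 2.46 FPKM in control libraries (0.91 ± 0.13, adjusted p = 0.00432). Both kept the call in each leave-out.

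Ptgs2, the inducible cyclooxygenase of prostaglandin synthesis, had 9.46, 12.2 and 3.88 FPKM under stretch and 1.04, 0.835 and 0.993 FPKM in control, a difference of 2.17 ± 0.33 (adjusted p = 0.0114). The stretched libraries spread over 3.15-fold, and the call held in 1 of the 6 leave-outs, that of transverse 30 min C (adjusted p = 0.000877 to 0.0867). Summed macrophage and leukocyte markers were at 359 to 395 FPKM in stretched and 337 to 487 FPKM in control libraries, with 0 of 9 called, and their part in this group was not tested. The cytokine gene Lif (0.81, adjusted p = 0.115) and the chemokine gene Cxcl1 (1.61, adjusted p = 0.173) did not overlap between the groups but were not called.

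Cyr61, a matricellular protein and target of YAP and SRF, had 278, 448 and 202 FPKM under transverse stretch and 53.4, 26.6 and 57.5 FPKM in control, a difference of 2.73 ± 0.41 (adjusted p = 0.00894). It reached the highest FPKM of the called genes, and library B was both the highest of the stretched and the lowest of the control libraries. Without control B its difference was 2.38 and the call ended (adjusted p = 0.0589). It was the only one of 20 YAP/TEAD targets called, with a list median of 0.06. Ereg, a ligand of the EGF receptor, had 6.17, 7.42 and 3.31 FPKM in stretched and 1.13, 0.972 and 1.57 FPKM in control cells (1.53 ± 0.25, adjusted p = 0.018). It was the 1 called of 29 secreted growth factors, cytokines and hormones, and removing A or B of either group ended its call (adjusted p between 0.00281 and 0.132). Adamts1, a metalloprotease that cleaves versican, had 22.4, 27.1 and 18.5 FPKM after stretch and 10.3, 11.7 and 12.3 FPKM in control (0.92 ± 0.16, adjusted p = 0.0344), the 1 called of 30 matrix genes. Its call held in 1 of the 6 leave-outs of the groups compared, that of transverse 30 min C (adjusted p = 0.0204 to 0.208).

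Genes of pre-mRNA splicing changed by small amounts in both directions. Of 37 Clk kinases and splicing regulators 3 rose, 1 fell and 33 were not called, with a median of 0.08. Clk1, the kinase that phosphorylates SR proteins, had 12.8, 12.3 and 12.9 FPKM in the transverse 30 min libraries and 22.3, 21.2 and 21.7 FPKM in control. The libraries of each group were nearly identical, and the difference was -0.74 ± 0.10 (adjusted p = 0.0029, and 0.0111 to 0.0234 over the 6 leave-outs). Srsf5, an SR protein that is itself a substrate of such kinases, had 110.1, 129 and 116 FPKM with stretch and 75.2, 57.4 and 63.2 FPKM without it (0.86 ± 0.09, adjusted p = 0.000517, but 0.0973 in the fit of the 6 libraries only). The SR protein gene Srsf6 had 36.6, 36.7 and 36.1 FPKM in stretched and 30.3, 28.4 and 30.2 FPKM in control libraries, the smallest called difference at 0.29 ± 0.05 (adjusted p = 0.0136). Ddx5, an RNA helicase of splicing and transcription, had 177, 159 and 185 FPKM under stretch and 142, 123 and 127 FPKM in control (0.41 ± 0.08, adjusted p = 0.0457). Leaving out single libraries moved the adjusted p of Srsf6 to between 0.0346 and 0.101 and that of Ddx5 to between 0.0242 and 0.297. Removing control B or C, or stretched A or B, ended the call of Srsf6. Removing control B or C, or stretched A or C, ended that of Ddx5. Quantile normalization ended both calls (adjusted p = 0.0743 for Srsf6 and 0.637 for Ddx5), and a shift of the libraries to a common median ended that of Ddx5 (adjusted p = 0.0792). FPKM per gene sum the transcripts of a gene, so a shift between spliced forms was not analysed here.

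**Figure D3:**
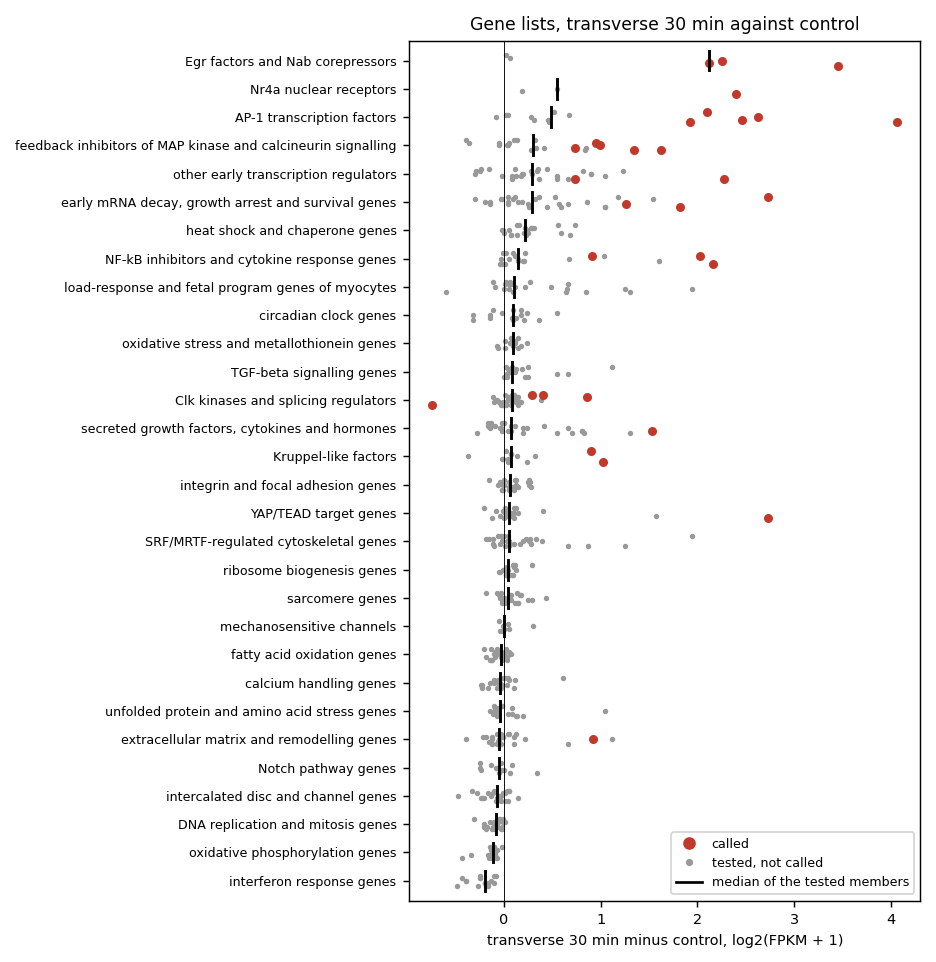
Difference between transverse 30 min and control (log2(FPKM + 1)) of every tested member of the 30 gene lists, with called members in red and the median of each list as a black bar. The AP-1 and feedback lists have 5 called members each and the splicing list 4, while contractile, metabolic and proliferation lists have none. With 0.275% of all genes called, lists of this size would mostly have none.

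Over all genes tested 0.275% were called, so a list of this size would mostly have no member called, and an empty list says little about its genes. Of the 30 lists 18 had none. These include 24 sarcomere genes (median 0.04), 22 calcium handling genes (-0.04), 25 genes of intercalated discs and channels (-0.07), 28 integrin and focal adhesion genes (0.06) and 8 mechanosensitive channels (-0.0015). Among myocyte genes the gap junction gene Gja1 had 379.7, 371 and 446 FPKM in stretched and 393, 405 and 385 FPKM in control libraries (0.01 ± 0.15, adjusted p = 1). The slow myosin gene Myh7 was at 718, 953 and 627 FPKM after stretch and 763, 635 and 701 FPKM in control (0.11 ± 0.18, adjusted p = 1). Over all genes tested 47.6% had a difference above 0. Of 26 oxidative phosphorylation genes 0 were called, and all 26 had differences below 0, with a median of -0.11 and a range of -0.44 to -0.02. The 17 interferon response genes also all lay below 0 (median -0.19) and the 24 replication and mitosis genes lay below it with 1 exception (median -0.08), in each case with 0 called. All 20 TGF-beta signalling genes lay above 0 (median 0.08), with 0 called. Heat shock and chaperone genes had a median of 0.22, with 19 of 21 above 0 and 0 called. Of 16 clock genes the nearest to the threshold was Per1, with 5.40, 4.40 and 5.02 FPKM under stretch and 3.67, 3.47 and 3.72 FPKM in control (0.36 ± 0.07, adjusted p = 0.0509).

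Neither the 22 load-response and fetal program genes nor the 29 SRF/MRTF-regulated cytoskeletal genes had a member called, with medians of 0.10 and 0.06. The share called over all genes tested was 0.275%, so this too says little about these lists. The most load-sensitive members of these lists split the stretched libraries. Nppb, which encodes BNP, had 267, 3455 and 112 FPKM in transverse 30 min A, B and C, against 511, 45.9 and 289 FPKM in control A, B and C. Library B was thus the highest of the stretched and the lowest of the control group, the groups overlapped, and the difference was 1.30 ± 1.21 (adjusted p = 1). Rcan1, a calcineurin inhibitor and NFAT target, had 54.0, 291 and 37.1 FPKM in stretched and 50.6, 36.6 and 52.9 FPKM in control libraries (0.85 ± 0.64, adjusted p = 1).

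The same pattern was seen in Ctgf, a matricellular YAP target, with 382, 1381 and 192 FPKM under stretch and 302, 58.2 and 217 FPKM in control (1.57 ± 0.75, adjusted p = 1). Ankrd1, a stretch-sensing ankyrin repeat protein of the titin complex, had 1860.4, 4635 and 1118 FPKM with stretch and 3609.6, 1096 and 2374 FPKM without it (0.01 ± 0.50, adjusted p = 1). For Nppb, Rcan1, Ctgf and Ankrd1 library C of the stretched group lay within the control range, and library A lay within it or far less above it than B. The skeletal actin gene Acta1 had 229, 396 and 82.8 FPKM in stretched and 45.1, 87.4 and 138 FPKM in control libraries (1.25 ± 0.74, adjusted p = 1). Abra, an activator of SRF at the sarcomere, had 14.6, 58.2 and 6.99 FPKM after stretch and 6.25, 2.07 and 4.78 FPKM in control, without overlap (1.95 ± 0.69, adjusted p = 1).

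**Figure D4:**
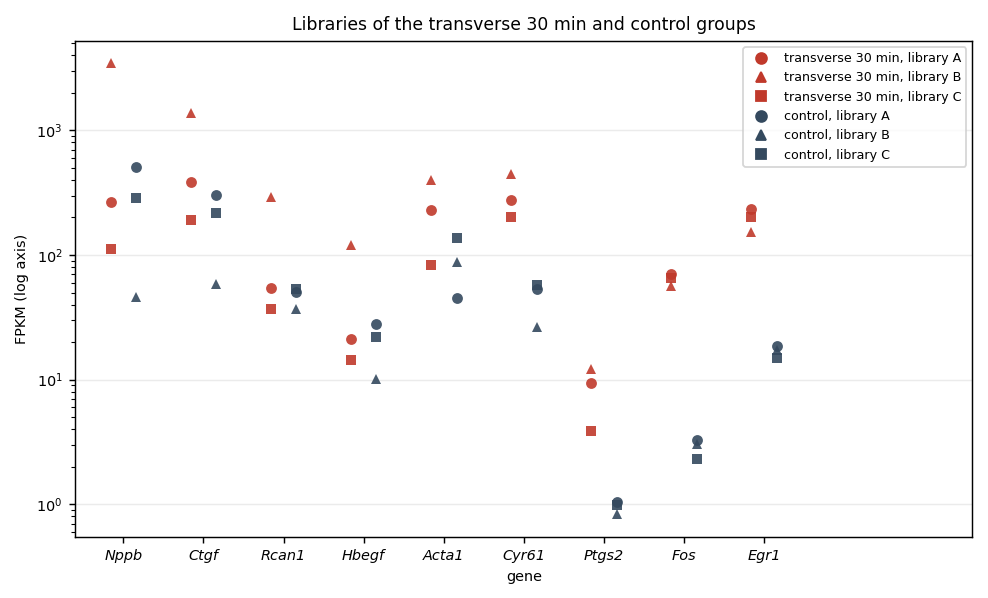
FPKM (log axis) of 9 genes in each library of transverse 30 min (red, left in each pair) and control (blue, right), with circles for library A, triangles for B and squares for C. Transverse 30 min B lies far above the other stretched libraries for Nppb, Ctgf, Rcan1 and Hbegf, while Fos and Egr1 separate the groups in all libraries with B the lowest of the stretched ones.

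Among the 32 risen genes library B was the highest of the stretched libraries for 16 and the lowest for 14. The highest in B include Cyr61 (3.34 above the control mean, against 2.65 in A and 2.19 in C), Ptgs2, Ereg, Atf3, Dusp6 and Adamts1. The lowest in B include Egr1 (3.12, against 3.73 in A and 3.50 in C), Nr4a1, Egr2, Egr3, Jun and Fos. What sets library B apart was not tested. Summed myocyte markers were at 17379 to 23936 FPKM in stretched and 17777 to 21292 FPKM in control libraries. Fibroblast markers summed to 2049.7 to 2437 FPKM under stretch and 2197 to 2742 FPKM in control. Smooth muscle and pericyte markers reached 421 to 1304 FPKM in stretched and 495 to 822 FPKM in control libraries, and epicardial markers 8.87 to 13.5 and 8.88 to 9.45 FPKM in stretched and control libraries. Library B was the highest stretched library for the myocyte, smooth muscle and epicardial sums. It was the lowest for the fibroblast sum and for the macrophage and leukocyte sum, and lay between A and C for the endothelial sum. The sums were not tested. All 10 fibroblast and all 9 macrophage and leukocyte markers had differences below 0 (medians -0.11 and -0.12), like the endothelial markers, and 0 markers of any type were called. Of the defining myocyte markers 12 of 14 were in the table and all were expressed, fibroblast markers were present in every library, and erythroid markers were not analysed here.

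Transverse stretch for 30 min was then set directly against transverse stretch for 4 h. Both comparisons use the same 3 transverse 30 min libraries, so a gene called in both is not independent support for its call against control. Of 12006 genes 36 differed (0.3%), 29 higher and 7 lower at 30 min. Of the 33 genes called against control 24 were also called here, 23 higher and Clk1 lower at 30 min, which is 24 of 36 by the other list. Fos had 70.6, 56.0 and 65.0 FPKM at 30 min and 3.25, 4.70 and 3.69 FPKM at 4 h, a difference of 3.74 ± 0.16 (adjusted p = 7.76e-08). Egr1 was at 235, 154 and 201 FPKM at 30 min, against 17.0, 20.1 and 22.7 FPKM at 4 h (3.23 ± 0.16, adjusted p = 2.64e-07). Their 4 h levels were near the control levels given above.

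Clk1 had 12.8, 12.3 and 12.9 FPKM at 30 min and 18.1, 17.6 and 22.8 FPKM at 4 h (-0.58 ± 0.10, adjusted p = 0.0228). The 9 genes not called between the durations were Dusp5, Dusp6, Spry4, Cyr61, Ereg, Klf6, Cited2, Adamts1 and Ddx5, each also higher at 30 min on average, with adjusted p between 0.107 (Ddx5) and 0.332 (Adamts1). Klf6, for example, had 36.7, 38.3 and 29.0 FPKM at 30 min and 25.3, 29.0 and 21.4 FPKM at 4 h (0.44, adjusted p = 0.275). Without transverse 30 min A 20 genes were called between the durations, against 36 with all libraries.

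**Figure D5:**
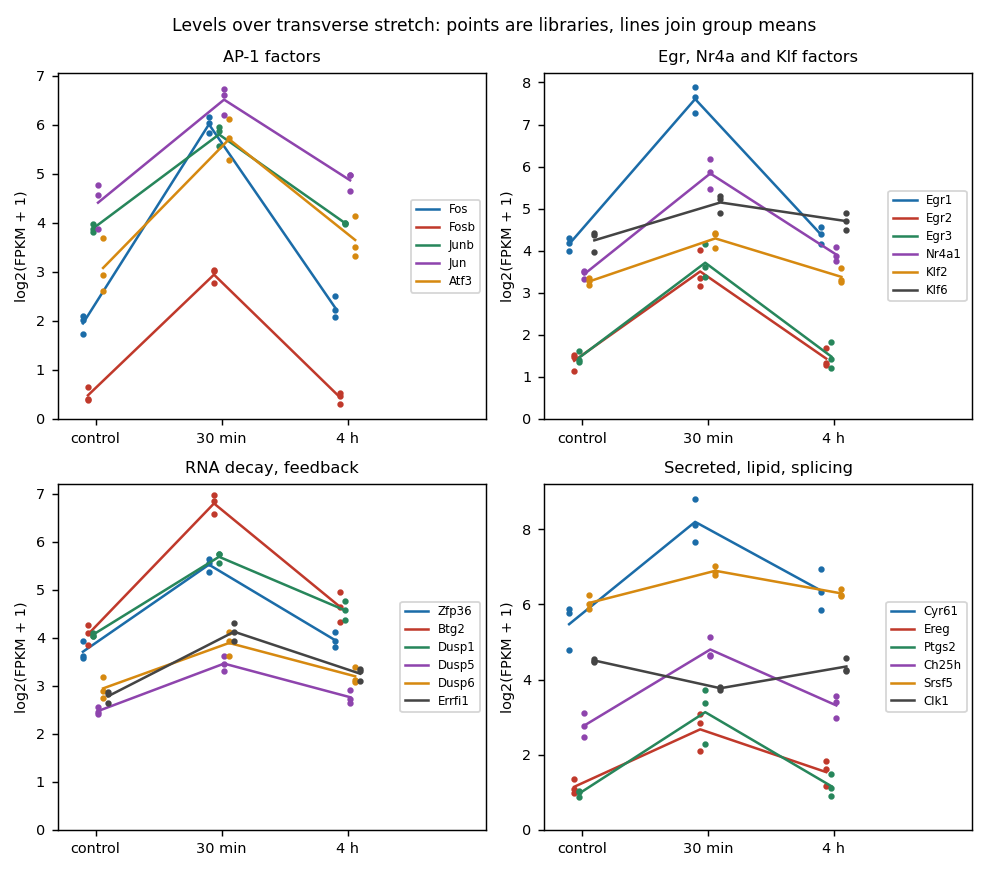
Level (log2(FPKM + 1)) of 23 called genes in control, after 30 min and after 4 h of transverse stretch, where points are libraries and lines join group means. Fos, Fosb, Egr1, Egr2 and Egr3 peak at 30 min and lie near their control level at 4 h, and Clk1 dips at 30 min.

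Against longitudinal stretch for 30 min, 0 of 12006 genes differed in limma (0%), with a smallest adjusted p of 0.81. At an unadjusted p under 0.05 there were 642 genes, against the 600.3 that independent unchanged genes would give. The comparison with control had 468 at that level, below the same 600.3. Genes varied together in these libraries, with 54.7% of the variance within groups on 1 component. Neither count therefore says how many genes changed, nor that the axes were alike. Of the 32 genes that rose under transverse stretch 30 had a lower value there than under longitudinal stretch, the largest gap being that of Atf3 at -0.72. These genes share the same libraries and are not independent. The shares of all genes that were lower or without overlap in this comparison were not counted, so the 30 are not read as a difference between the axes. Atf3 had 52.3, 68.3 and 37.9 FPKM after transverse and 59.7, 91.8 and 113 FPKM after longitudinal stretch. Ch25h was at 34.1, 23.6 and 24.1 FPKM after transverse and 40.7, 43.4 and 42.1 FPKM after longitudinal stretch, without overlap and not called (adjusted p = 0.81). Leaving out transverse 30 min A gave 1 called gene, Rps27, a ribosomal protein gene named here after its values were seen. It had 3.36, 66.8 and 50.2 FPKM after transverse and 2.52, 4.02 and 3.72 FPKM after longitudinal stretch. How reads were shared with similar gene copies is not known from these files, so the values are uncertain.

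In the authors' deposited table, 53 of 13506 genes outside the small RNA rows had a q-value under 0.05 for this comparison (0.392%), against the 33 called with limma. Of the 33 genes 27 were among the 53. The 6 others were Srsf5, Srsf6, Ddx5, Clk1, Cited2 and Dusp5, all with differences under 1 in size, and the authors' deposited table lists Srsf5 with q = 0.221 and Dusp5 with q = 0.0674. The 26 genes with an authors' q-value under 0.05 that limma did not call include Abra, Plk2, Otud1, Hbegf, Inhba, Lmcd1 and Gadd45g. Of the 26, 24 had their highest value of the 6 libraries in transverse 30 min B. The share of all genes tested with their highest value in that library was not counted. The 24 are therefore not read as the reason why the authors' q-values and limma differ. Hbegf, a growth factor of the EGF family, had 21.0, 119.6 and 14.4 FPKM in transverse 30 min and 27.7, 10.1 and 21.8 FPKM in control libraries.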

How the data were processed

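Poly(A) RNA of 15 libraries was sequenced, and the 6 of transverse 30 min stretch and control are reported here. The library kit (Illumina TruSeq v2) does not mark the strand, per the labels' protocols, so overlapping and antisense genes cannot be told apart. Per the submitters' processing notes, the tools were TopHat 1.4.1, Cufflinks 2.0.2 and FastQC and the build was mm9, without order or settings. The authors deposited 1 table with an FPKM value per gene and library and, per the file headers, a q-value for each stretch group against control. How that q-value was tested is not stated by those sources. The FPKM carry no counts, so absolute depth is unknown and intervals for counting error are left out. Relative depths come from the steps of the lowest values, equal within 0.002 on the log2 scale. No column belonged to another series (0).

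Tests were made in limma 3.58.1 under R 4.3.3 (trend and robust options, two-sided) on log2(FPKM + 1), in 1 fit of 5 group means over all 15 libraries with 10 residual degrees of freedom, for genes with at least 1 FPKM in at least 3 libraries. Exact permutation of 3 against 3 libraries cannot go below p = 0.1, so no such test was used. The fit was also run on simulated data with independent noise for each gene. In the real data 1 component held 54.7% of the variance within groups, so that run does not show the error rates of these calls. Named genes are all called genes, up to 4 uncalled members per list by p, and a set of load-response and related genes (Nppb, Acta1, Myh7, Ctgf, Ankrd1, Rcan1, Gja1, Jun, Srf, Per1 and Edn1). Others (Hbegf, Rhob, genes of the authors' q-values and of the observations) were chosen after their values were seen. The groups compared, the 30 gene lists and the tests were chosen with earlier results of these data known. Lists are described by counts and medians without a test. Starts in the table count from 0, so 1 was added. Of 10759 symbols compared with GRCm38, spans matched for 2769 on that reading and for 287 on the other. Promoter windows are RefSeq's (GRCm38.p6) and were matched by symbol. Alternatives were other pseudocounts, filters and scalings, only the 6 libraries, a replicate block, each library left out, and the authors' q-values.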

Additional observations from a re-analysis of the deposited data

Results flagged for a closer look

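The 24 genes called both against control and between the durations of transverse stretch are listed because the difference between 30 min and 4 h was itself tested in limma. The same transverse 30 min libraries enter both tests, so being called in both is not independent support. On the log2(FPKM + 1) scale, 30 min minus 4 h, the AP-1 genes differed by 3.74 (Fos), 2.504 (Fosb), 2.06 (Atf3), 1.81 (Junb) and 1.65 (Jun). The Egr genes differed by 3.23 (Egr1), 2.23 (Egr3) and 2.07 (Egr2), Nr4a1 by 1.93, Klf2 by 0.91 and Ier2 by 2.23. Among the mRNA decay and growth arrest genes Btg2 differed by 2.16 and Zfp36 by 1.57, and Arc, from the same list, differed by 1.21. The feedback and signalling genes followed with 1.12 for Dusp1, 0.87 for Errfi1, 0.98 for Rgs16 and 0.83 for Irs2. Ptgs2 differed by 1.97, Ch25h by 1.49 and Nfkbiz by 0.89. The splicing genes differed by 0.60 (Srsf5), 0.28 (Srsf6) and -0.58 (Clk1). Adjusted p was between 7.76e-08 (Fos and Ier2) and 0.0296 (Atf3).

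Among the small RNA rows outside the comparison, Mir3100 was listed at 88.8, 265 and 276 FPKM in transverse 30 min libraries and at 0.397, 0 and 0 FPKM in control libraries, a log2 difference of 7.39. Snora5c was at 0.651, 0 and 0 FPKM under stretch and 36.5, 52.1 and 23.2 FPKM in control (-4.94), and Mir703 at 1199, 1046 and 1299 FPKM under stretch and 1931, 2072 and 2221 FPKM in control (-0.82). These rows come from poly(A) libraries, where mature small RNAs are not captured, and what the values measure was not tested.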

How the results depend on the processing

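Against control, 33 genes were called and none of the 33 changed sign in any setting. Only the 6 libraries of both groups gave 21 genes (20 of the 33 and Sik1). A replicate block gave 25, all among the 33, and 12 with the 6 libraries only, also all among the 33. The authors' deposited q-values gave 53. Pseudocount 5 gave 28, libraries shifted to a common median 31 and small RNA rows kept in 38. Leaving out each library in turn gave 23 to 33 genes, the fewest without control B, then 24 without transverse 30 min A and 27 without transverse 30 min B, where Per1, Rhob and Spry2 were added. The 15 leave-outs kept 21 of the 33, and the 11 other settings kept 11. Between 30 min and 4 h the 36 genes became 23 under the replicate block and 20 to 38 in the leave-outs. Between the axes 0 genes became 0 to 1 in the leave-outs. Leave-outs of the other groups were chosen after seeing the data.

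Whether the letters A, B and C pair the libraries cannot be decided here. Deviations of same-letter libraries of both groups correlated at -0.155, -0.611 and -0.358 across genes. Deviations within a group cancel out and 1 component held 54.7% of their variance, so these correlations do not decide on pairing. Whether a call lost under the replicate block is a weaker effect was therefore left undecided. The median over all genes moved from -0.0052 to -0.010 with a common median and -0.0092 with quantile normalization. Unknown absolute depth and 3 libraries a group limit the precision, most for the 12 called genes with a control mean under 5 FPKM.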

Other observations

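Between 30 min and 4 h of transverse stretch 12 genes were called that were not called against control, 6 higher and 6 lower at 30 min. The histone genes H3f3b and H1f0 were among the higher ones. H3f3b, the histone variant H3.3, had 109, 110.5 and 97.0 FPKM at 30 min and 77.1, 80.8 and 72.9 FPKM at 4 h (0.45, adjusted p = 0.00813), and control libraries had 88.2, 86.5 and 82.4 FPKM. Lower at 30 min were Met, the receptor of hepatocyte growth factor (-0.45, adjusted p = 0.0228), the netrin gene Ntn4 (-0.88, adjusted p = 0.0488) and the JNK phosphatase gene Dusp16 (-0.53, adjusted p = 0.0493). For Ntn4 the values were 14.4, 17.5 and 13.4 FPKM at 30 min, 27.4, 31.4 and 26.7 FPKM at 4 h, and 17.96, 13.3 and 19.4 FPKM in control.

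Txnip, an inhibitor of glucose uptake and thioredoxin, had one of the largest negative differences without a call, with 69.5, 99.99 and 121 FPKM under transverse stretch and 188, 210.5 and 131 FPKM in control (-0.87, adjusted p = 0.912). The groups did not overlap, and it was chosen after its values were seen.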
